A study of Mus musculus with 12 samples.

Results

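Collagen genes were followed in mouse primary hippocampal cultures that received a mimic of the microRNA miR-148a-3p or a negative control RNA. A gene was taken as a collagen chain if its symbol had the form Col, a number, a and a number, and if 6 or more of the 12 libraries held 5 or more counts of it. All 44 collagen genes of the count tables met this rule, out of 18847 genes that met the same count limit and 48709 genes counted in all. The cultures came from pooled hippocampi of CD1 embryos at embryonic day 17 and hold glia as well as neurons. At day 10 in vitro they were given lipid nanoparticles loaded with either the miR-148a-3p mimic (6 libraries) or the negative control oligonucleotide (6 libraries), and RNA was harvested after 48 h, at day 12. According to the study's methods, apolipoprotein E4 was added to the cultures of both groups, so neither group is an untreated culture. The series description names the control a siRNA, whereas the methods describe a scrambled sequence. The labels do not say that the 6 libraries of a group came from separate cultures, so the p-values measure the spread between these libraries, which may be technical.

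Collagens are secreted or membrane proteins built of 3 chains wound into a triple helix, each chain being encoded by its own gene. Fibrillar collagens form the banded fibres of connective tissue, type IV chains form the sheet-like network of basement membranes, and the remaining types decorate fibrils, anchor cells or form networks of their own. In the brain most fibrillar collagen lies in the meninges and around larger vessels, and type IV collagen lies in the basement membrane that vessel cells and astrocytes share, while some transmembrane and fibril-associated collagens are made by neurons. MicroRNAs lower the level of transcripts that match their seed, bases 2 to 8 of the small RNA, most often in the 3′ untranslated region (UTR).

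The oligonucleotides and the matches of the mimic's seed within collagen transcripts are shown first, since they show where the seed of the mimic finds its complement. The mature strands below are written 5′ to 3′ with the seed in capitals. The strand of the mimic is identical to the RefSeq entry of mouse miR-148a-3p.
miR-148a-3p mimic: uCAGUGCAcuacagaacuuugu
negative control: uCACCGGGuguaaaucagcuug

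A seed site was a stretch of the longest annotated 3′ UTR that matched bases 2 to 8 (TGCACTG), that matched bases 2 to 7 followed by an A (GCACTGA), or that did both as an 8-base site (TGCACTGA). Such sites were present in 8 of the 44 collagen genes (18.2%), against 21.9% of the 15082 tested genes with an annotated 3′ UTR. The 9 sites are printed below in the sense direction with 28 bases each and the match in capitals, and the coordinates (GRCm38, the same build as mm10) give the match itself.
Col4a1, chr8:11199498-11199505, minus strand, 8-base site: attttgcaatccagTGCACTGAtgtctg
Col2a1, chr15:97975951-97975958, minus strand, 8-base site: gtcactccaggatcTGCACTGAatggct
Col5a2, chr1:45374482-45374488, minus strand: acctaccattttgtcTGCACTGgcttaa
Col6a2, chr10:76598946-76598952, minus strand: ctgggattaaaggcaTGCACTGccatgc
Col25a1, chr3:130595900-130595906, plus strand: ccggttcagcactccTGCACTGtcttcc
Col23a1, chr11:51580498-51580504, plus strand: tgtgccgtaggcagcTGCACTGgggccc
Col23a1, chr11:51581766-51581772, plus strand: ttgtagcccaggctaGCACTGAactcac
Col22a1, chr15:71796492-71796498, minus strand: tccccctatcaaaacTGCACTGtaggat
Col20a1, chr2:181018146-181018152, plus strand: ttgcacagttgtacaGCACTGAtcctca

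The libraries held between 20018234 and 37149112 counts. A control library, control replicate 1, stood apart from the other control libraries on the second principal component of all tested genes, and its summed level of 11 oligodendrocyte lineage markers was 725 CPM, counts per 1000000 counts of the library after scaling, against 431 to 461 CPM in the other control libraries and 813 to 1007 CPM in the mimic libraries. All 12 neuron markers were detected, with a summed 7768 to 8447 CPM in the control and 8306 to 8625 CPM in the mimic libraries, and all 11 astrocyte markers were detected as well (4949 to 5432 CPM in the control and 5808 to 6264 CPM in the mimic libraries).

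Of the 44 collagen genes, 13 were lower and 6 were higher in the mimic than in the control libraries at an adjusted p under 0.05 (edgeR quasi-likelihood test, Benjamini-Hochberg adjustment over all tested genes), and 25 were not called. Over all tested genes, 22.2% were called, 10.7% as lower and 11.5% as higher. By DESeq2, 20 of the 43 collagen genes with an adjusted p (all but Col24a1) were called, where 26.4% of all genes it tested were, and limma-trend called 19, where 21.9% were. The share among the collagens in the edgeR test was 43.2%, made up of 29.5% lower and 13.6% higher. Without control replicate 1, 21 of the 44 collagen genes were called in place of 19, 8 of them higher in place of 6. Among the 12371 tested genes with a mean of at least 100 counts 28.4% were called, 13.3% as lower and 15.1% as higher. Of the 33 collagen genes above that mean 17 were called, 12 lower (36.4%) and 5 higher (15.2%). The median log2 fold change of the 44 genes was -0.18, against -0.01 over all tested genes, with 30 values below and 14 above 0. The largest decrease was that of Col8a1 and the largest increase that of Col9a3. In RNA from whole cultures, fewer cells of a type and less RNA per cell cannot be told apart.

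**Figure D1:**
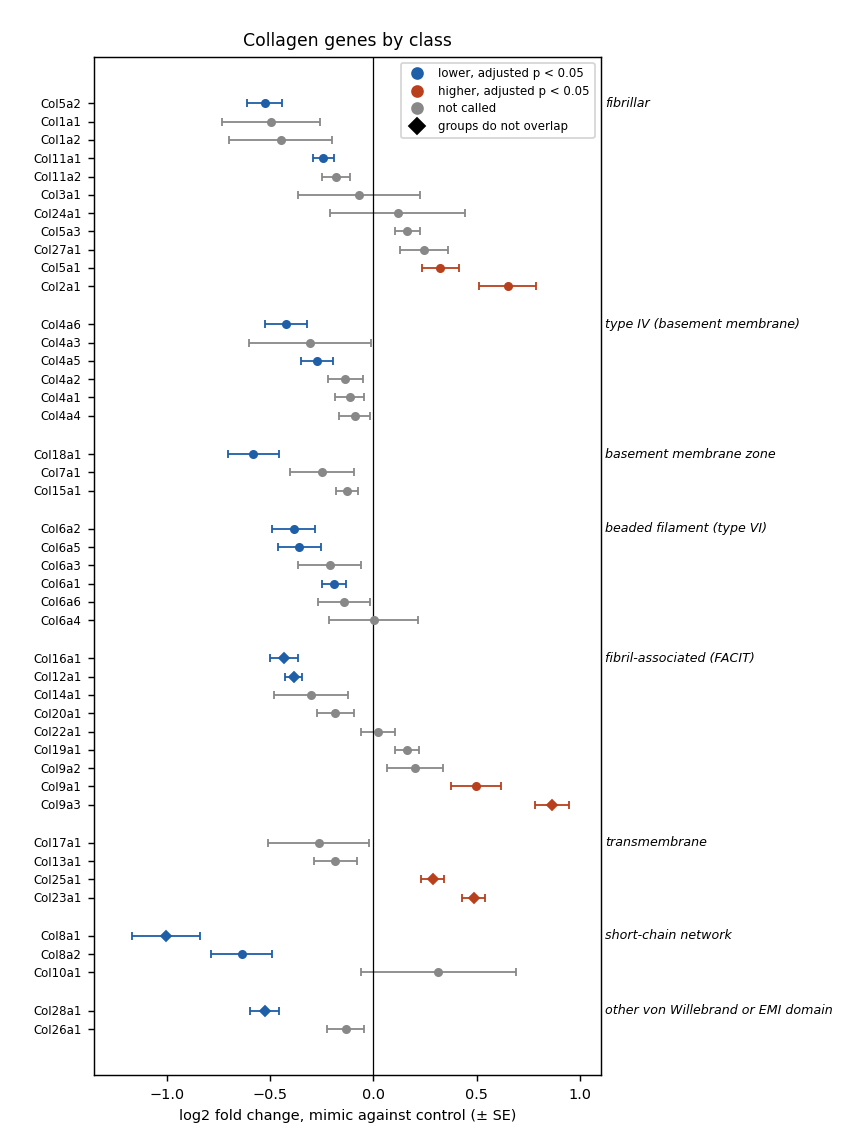
Log2 fold change of each collagen gene, mimic against control, with its standard error (horizontal axis), grouped by class, with blue for lower, red for higher and grey for not called (edgeR, adjusted p under 0.05) and diamonds for genes whose 6 mimic and 6 control libraries do not overlap. All 6 type IV chains lie to the left of 0, while fibrillar and fibril-associated chains lie on both sides.

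In the 6 control libraries, the 5 highest medians per length of exon were those of 3 type IV and 2 type V chains. Col4a1 had a median of 27.0 CPM per kb of exon (range 25.1 to 31.3), followed by Col5a1 with 18.8 (17.3 to 26.3), Col4a2 with 17.4 (15.8 to 21.2), Col4a5 with 11.4 (8.95 to 12.6) and Col5a2 with 8.74 (6.55 to 10.5). These 5 genes made up 47.1% of the summed medians per kb of all 44. Of the neighbours in this order, Col4a2 and Col4a5 did not overlap across the control libraries, whereas Col4a1 with Col5a1, Col5a1 with Col4a2, and Col4a5 with Col5a2 did. Col5a2 also overlapped the next gene, Col6a1 (7.16 to 8.01), so its place among these 5 rests on the median. The chains of type I, the main collagen of most connective tissue, ranked lower, with medians of 6.31 (Col1a1) and 3.87 CPM per kb (Col1a2). The order depends on the length used, all annotated exons of a gene joined, which was 6.56 kb for Col1a1 and 12.4 kb for Col1a2. Without division by length, Col1a2 had the higher median (48.1 against 41.4 CPM). The lowest of the 44 were measured by few reads, with means of 6.83 counts for Col24a1, 9.75 for Col10a1, 14.8 for Col17a1 and 18.8 for Col6a4, and Col24a1 and Col10a1 reached 5 counts in 9 and 10 libraries.

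**Figure D2:**
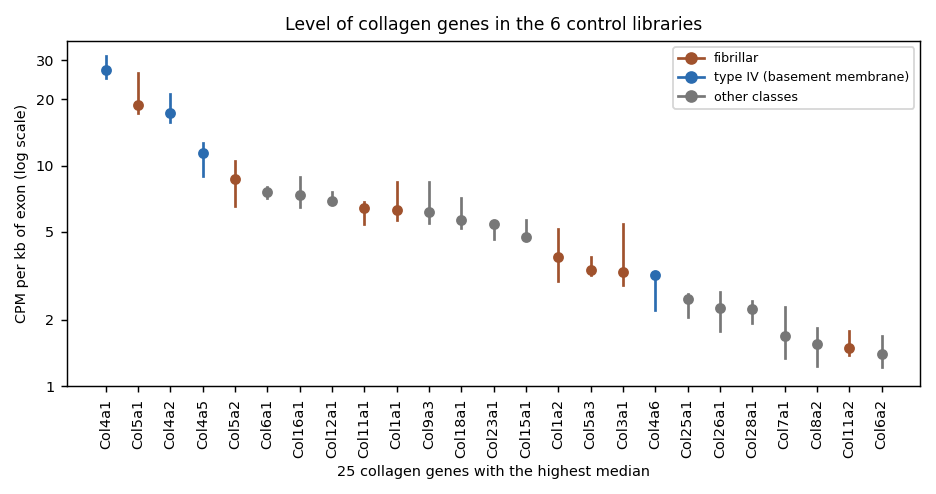
Level of the 25 most abundant collagen genes in the 6 control libraries, as CPM per kb of exon on a log scale, with the median as a point and the lowest to highest library as a line. Col4a1 has the highest median, 27.0, and the 5 highest medians are those of the type IV chains Col4a1, Col4a2 and Col4a5 and the type V chains Col5a1 and Col5a2. The range of Col5a2 overlaps that of the next gene, Col6a1.

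The summed CPM of the 44 genes ranged from 1340 to 1539 (median 1383) in the control and from 1204 to 1478 (median 1297) in the mimic libraries. The groups overlapped. Fibrillar chains gave 36.1% ± 1.2 (SD) of that sum in the control and 37.6% ± 1.3 in the mimic libraries, type IV chains 30.4% ± 0.93 and 29.3% ± 0.66, and the other chains 33.5% ± 0.96 and 33.1% ± 1.6, with n = 6 libraries a group. The ranges of all 3 shares overlapped between the groups.

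Among the 11 fibrillar genes, 2 were lower and 2 were higher, both directions occurring within type V. Type V collagen controls the diameter of type I fibrils, and its usual trimer holds chains from Col5a1 and Col5a2. Col5a2 (chr1:45374321-45503282, minus strand) ranged from 62.8 to 100.4 CPM (median 83.8) in the control and from 53.7 to 65.2 CPM (median 55.7) in the mimic libraries. In 5 of the 6 mimic libraries it lay below every control library, and the lowest control was control replicate 1. Its log2 fold change was -0.53 ± 0.09 (SE), with an adjusted p of 0.000293. Col5a1 (chr2:27886425-28039514, plus strand) ranged from 147 to 224 CPM (median 159) in the control and from 192 to 236 CPM (median 207) in the mimic libraries. All 6 mimic libraries lay above the control median, but only 1 exceeded control replicate 1, the highest of its group. It was higher by 0.32 ± 0.09 on the log2 scale (adjusted p = 0.0166). With no filter on low counts the adjusted p of Col5a1 was 0.0644. The third chain, Col5a3, ranged from 21.7 to 26.1 CPM (median 22.9) in the control and from 22.9 to 28.7 CPM (median 26.2) in the mimic libraries, and it missed the threshold (log2 fold change 0.17 ± 0.06, adjusted p = 0.0555) but passed it by DESeq2 (0.0407), with no filter on low counts (0.0434), and without control replicate 1 (0.034), control replicate 2 (0.0189), mimic replicate 2 (0.023) or mimic replicate 3 (0.0464).

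The opposite changes of Col5a1 and Col5a2 moved their ratio within a library. The count ratio of Col5a1 to Col5a2 was 1.71 to 3.56 (median 1.76) in the control and 3.14 to 4.27 (median 3.72) in the mimic libraries. The single control library inside the mimic range was control replicate 1, at 3.56. Of the 8 pairs of partner chains examined, this pair had the largest difference in mean log2 ratio between the groups (1.01 ± 0.41 (SD) in the control and 1.86 ± 0.18 in the mimic libraries). The ratio of Col4a1 to Col4a2 stayed between 1.67 and 1.84 in all 12 libraries (medians 1.74 and 1.75), and that of Col1a1 to Col1a2 between 0.728 and 1.04. The ratio of Col8a1 to Col8a2 had medians of 1.55 in the control and 1.18 in the mimic libraries, with overlapping ranges. The ratio of Col9a3 to Col9a1 had medians of 10.1 and 13.3, also with overlap.

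**Figure D3:**
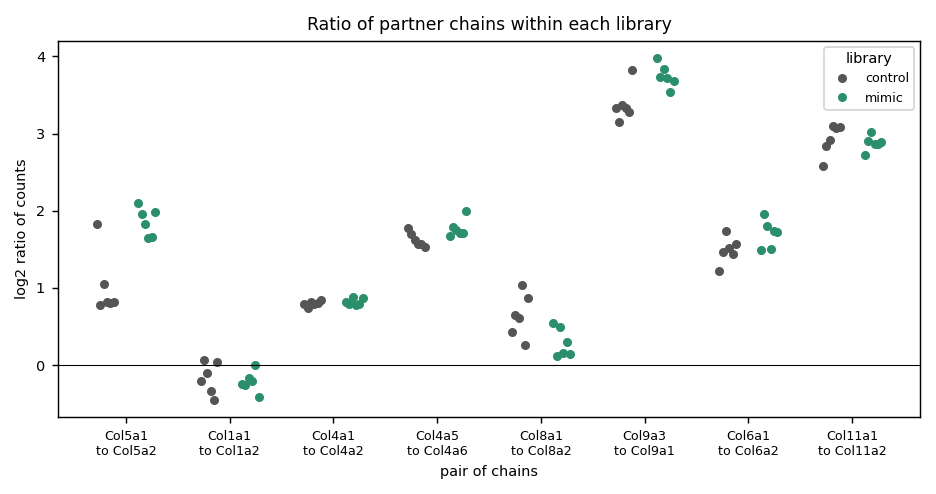
Log2 ratio of counts (vertical axis) for 8 pairs of partner chains in each of the 6 control (grey) and 6 mimic (green) libraries. The Col5a1 to Col5a2 points of 5 control libraries lie below all mimic points and control replicate 1 lies among them, while the Col4a1 to Col4a2 points are level throughout.

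Type XI chains join type II in cartilage and also form mixed trimers with type V. Col11a1 ranged from 68.9 to 87.1 CPM (median 82.3) in the control and from 62.7 to 73.1 CPM (median 68.5) in the mimic libraries. It fell by 0.24 on the log2 scale (SE 0.05, adjusted p = 0.00258), with all mimic libraries below the control median and 3 of them below every control. Its partner Col11a2 ranged from 9.54 to 12.2 CPM (median 10.3) and from 8.69 to 10.05 CPM (median 9.26), and was not called (log2 fold change -0.18 ± 0.07, adjusted p = 0.0687). Col2a1, the chain of cartilage collagen, ranged from 4.58 to 8.99 CPM (median 5.85) in the control and from 8.60 to 11.8 CPM (median 9.96) in the mimic libraries. The groups overlapped only at control replicate 1, the highest control, which exceeded 2 mimic libraries. Col2a1 was higher by 0.65 ± 0.14 on the log2 scale (adjusted p = 0.00244). Its 3′ UTR carries an 8-base site of the mimic, and it is on the study's list of predicted targets.

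Types I and III make up the thick fibres of skin, tendon, meninges and vessel walls. Col1a1 ranged from 37.1 to 55.6 CPM (median 41.4) in the control and from 19.8 to 55.3 CPM (median 27.1) in the mimic libraries. The highest mimic library, mimic replicate 4, lay with the highest controls, and the other 5 lay below every control. Col1a1 was not called (log2 fold change -0.49, 95% interval -1.02 to 0.03, adjusted p = 0.178). Col1a2 ranged from 37.4 to 64.0 CPM (median 48.1) and from 22.1 to 64.1 CPM (median 32.4), again with mimic replicate 4 highest, and was not called either (-0.45, -0.999 to 0.10, adjusted p = 0.249). Without mimic replicate 4 both were lower, Col1a1 with a log2 fold change of -0.74 (adjusted p = 0.00291) and Col1a2 with -0.69 (adjusted p = 0.0137). Col3a1 ranged from 28.1 to 53.3 CPM (median 32.4) in the control and from 17.02 to 56.7 CPM (median 31.8) in the mimic libraries. Its log2 fold change of -0.07 (95% interval -0.72 to 0.58, adjusted p = 0.908) includes changes in either direction, and the estimate was 0.0707 without control replicate 1, its highest control. Mimic replicate 4 was also highest for the summed level of 14 fibroblast markers, at 130 CPM, against 105 to 116 CPM in the other mimic libraries and 97.7 to 110 CPM in the control libraries. The part of fibroblast content in these collagen values was not tested.

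The remaining fibrillar chains, Col27a1 and Col24a1, are the most distant members of the class. Col27a1 ranged from 8.72 to 14.9 CPM (median 10.8) in the control and from 10.6 to 15.2 CPM (median 12.9) in the mimic libraries. It was not called (log2 fold change 0.25 ± 0.11, adjusted p = 0.151), but passed the threshold without control replicate 1, its highest control (0.34, adjusted p = 0.0121). Without that library, 4 fibrillar genes were higher instead of 2, and without mimic replicate 4, 4 were lower instead of 2. Col24a1 stayed between 0.107 and 0.417 CPM in all libraries, and a change was not detectable at this depth (95% interval -0.57 to 0.81).

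Type IV collagen is the network of every basement membrane, and its 6 genes lie in 3 head-to-head pairs. Of these genes 2 were lower in the mimic libraries, Col4a5 and Col4a6, and 0 were higher by edgeR, DESeq2 or limma-trend, with 2 at an unadjusted p under 0.05. The estimates of all 6 were below 0, from -0.42 to -0.09. Col4a6 (chrX:141165403-141474076, minus strand) ranged from 17.6 to 26.0 CPM (median 25.4) in the control and from 15.1 to 21.9 CPM (median 17.3) in the mimic libraries. Control replicate 1, at 17.6 CPM, was the only control library within the mimic range. The log2 fold change was -0.42 ± 0.10 (adjusted p = 0.00536). Col4a5 (chrX:141475385-141689234, plus strand) ranged from 60.1 to 84.9 CPM (median 76.6) and from 53.3 to 71.8 CPM (median 60.5), again with control replicate 1 lowest in its group. All mimic libraries lay below the control median. Its log2 fold change was -0.27 ± 0.08 (adjusted p = 0.0189, and 0.0831 with no filter on low counts).

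The RefSeq start sites of Col4a5 and Col4a6 are 1343 bases apart on opposite strands. The 250 bases before each start (RefSeq, GRCm38.p6) are printed because these neighbours were both called lower, written 5′ to 3′ in the direction of the gene, with capitals for a CCAAT box (CCAAT) or a GC box (GGGCGG), searched on both strands together with the TATA box (TATAAA).
Col4a5, chrX:141475169-141475418, plus strand: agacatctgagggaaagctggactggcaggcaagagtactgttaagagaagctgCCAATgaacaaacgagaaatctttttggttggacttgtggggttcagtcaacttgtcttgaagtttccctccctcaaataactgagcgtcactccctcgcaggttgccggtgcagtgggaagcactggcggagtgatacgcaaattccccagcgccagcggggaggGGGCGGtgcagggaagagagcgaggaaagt
Col4a6, chrX:141474077-141474326, minus strand: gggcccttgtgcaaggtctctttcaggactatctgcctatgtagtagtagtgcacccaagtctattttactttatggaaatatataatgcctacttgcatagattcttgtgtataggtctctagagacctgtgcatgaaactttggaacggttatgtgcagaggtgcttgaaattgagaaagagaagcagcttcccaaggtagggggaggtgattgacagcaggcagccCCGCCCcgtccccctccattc

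The Col4a5 window held 1 CCAAT box and 1 GC box, and the Col4a6 window held 1 GC box. Over the 32851 promoter windows of the same length in the RefSeq table, 33.8% held a CCAAT box, 32.7% a GC box and 12.4% a TATA box, so these letters are common and a match is a description only. RefSeq windows were available for 35 of the 44 collagen genes.

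The start sites of Col4a1 and Col4a2, the chains found in nearly all basement membranes, lie 21 bases apart, and their first exons overlap by 22 bases on opposite strands. Col4a1 (chr8:11198423-11312826, minus strand) ranged from 187 to 234 CPM (median 202) in the control and from 169 to 222 CPM (median 186) in the mimic libraries. It was not called (log2 fold change -0.11, 95% interval -0.26 to 0.03, adjusted p = 0.281). Like Col2a1, it has an 8-base site of the mimic and is on the study's list of predicted targets. Col4a2 (chr8:11312805-11449287, plus strand) ranged from 105 to 140 CPM (median 115) and from 91.8 to 130 CPM (median 106), and was not called either (-0.14, -0.32 to 0.04, adjusted p = 0.290). For both genes the intervals exclude a decrease beyond 0.32 on the log2 scale. Of the chains typical of kidney, lung and inner ear membranes, Col4a4 ranged from 4.97 to 6.44 CPM (median 6.14) in the control and from 5.13 to 6.19 CPM (median 5.49) in the mimic libraries, with a log2 fold change of -0.09 ± 0.07 (adjusted p = 0.444). Col4a3, at a mean of 19.7 counts, stayed between 0.252 and 1.21 CPM, and its interval was wide (-0.93 to 0.31).

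**Figure D4:**
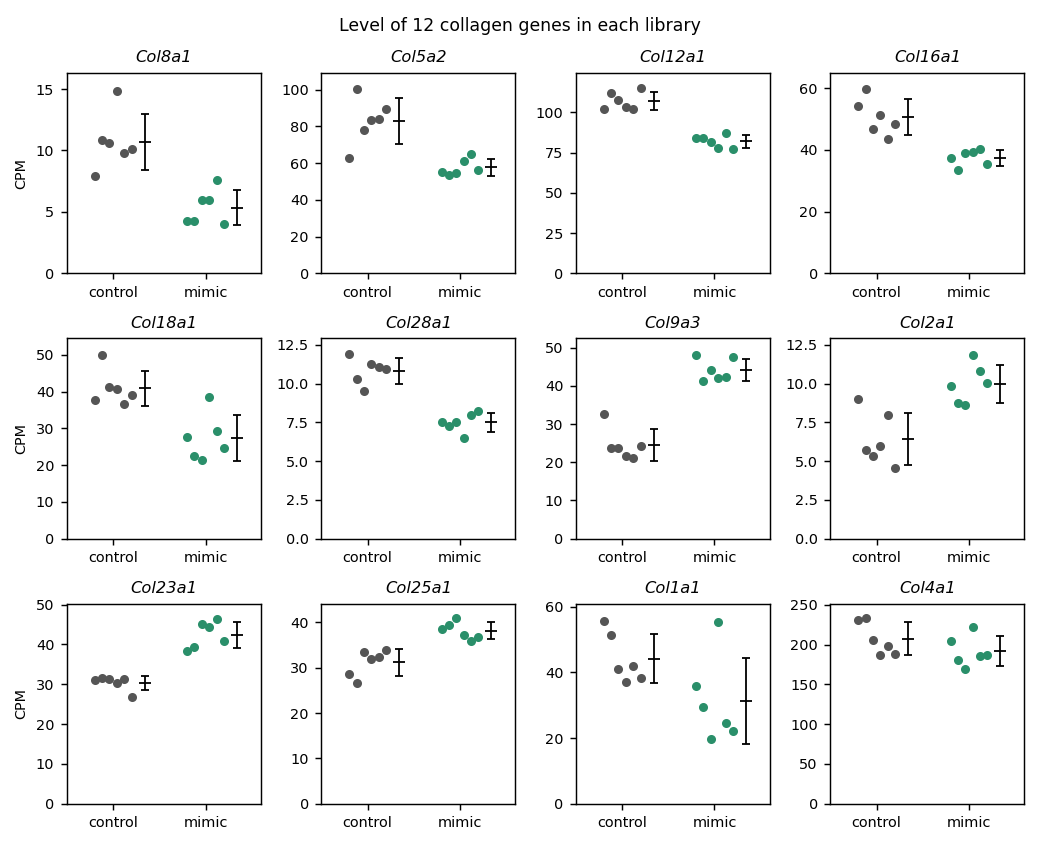
CPM of 12 collagen genes in each of the 6 control (grey) and 6 mimic (green) libraries, with the mean and SD in black beside each group and a vertical axis that starts at 0 for every gene. Col8a1, Col12a1, Col16a1 and Col28a1 are lower and Col9a3, Col23a1 and Col25a1 higher without overlap, while Col1a1 spans from 19.8 to 55.3 CPM within the mimic group.

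Of the 27 genes outside the fibrillar and type IV classes, 9 were lower and 4 were higher. In 7 of the 44 collagen genes the mimic and control libraries did not overlap, a share near the 13.3% of all tested genes. All 7 were among these 27, 4 with every mimic library below every control library and 3 with every mimic library above. Over all tested genes, 5.83% lay apart in the first direction and 7.43% in the second.

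The short-chain collagens build hexagonal lattices, type VIII in vessel walls and in the membrane beneath the corneal endothelium, and type X in growing cartilage. Col8a1 (chr16:57624258-57754737, minus strand) ranged from 7.93 to 14.8 CPM (median 10.3) in the control and from 4.04 to 7.62 CPM (median 5.12) in the mimic libraries. Every mimic library lay below every control library. The log2 fold change was -1.003 ± 0.16 (adjusted p = 0.000318), or 0.499 times the control level, and it stayed between -1.13 and -0.88 when any library was left out or another setting was used. Its partner Col8a2 ranged from 5.55 to 8.20 CPM (median 6.95) and from 2.91 to 6.17 CPM (median 4.10). In 5 mimic libraries it lay below every control. It fell by 0.64 on the log2 scale (SE 0.15, adjusted p = 0.00486). Col10a1, with a mean of 9.75 counts, was not called (95% interval -0.48 to 1.11).

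Basement membrane zone collagens border basement membranes without being part of the type IV sheet, and the C-terminal fragment of type XVIII is the angiogenesis inhibitor endostatin. Col18a1 ranged from 36.6 to 49.9 CPM (median 39.9) in the control and from 21.5 to 38.5 CPM (median 26.2) in the mimic libraries. All mimic libraries but mimic replicate 4 lay below every control. Its log2 fold change was -0.58 ± 0.12 (adjusted p = 0.00310). Col15a1 ranged from 29.4 to 36.0 CPM (median 30.2) and from 27.3 to 30.1 CPM (median 28.5), and was not called (-0.13 ± 0.05, adjusted p = 0.0897). Col7a1, the anchoring fibril chain, ranged from 13.8 to 23.4 CPM (median 17.3) and from 10.9 to 21.2 CPM (median 14.2), with mimic replicate 4 highest in its group, and was not called (-0.25 ± 0.16, adjusted p = 0.296).

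Type VI collagen forms beaded filaments that link cells to the surrounding matrix, and its common trimer holds the chains of Col6a1, Col6a2 and Col6a3. Of its 6 genes 3 were lower and 0 higher by edgeR, DESeq2 or limma-trend, with 3 at an unadjusted p under 0.05. Col6a2 ranged from 10.1 to 14.1 CPM (median 11.7) in the control and from 7.27 to 11.9 CPM (median 8.73) in the mimic libraries. Mimic replicate 4 lay inside the control range and the other 5 below it. Its log2 fold change was -0.39 ± 0.11 (adjusted p = 0.0136), and it is among the few lower collagens with a seed site of the mimic. Col6a1 ranged from 31.3 to 35.1 CPM (median 33.1) and from 25.4 to 33.8 CPM (median 28.1). It was lower by the smallest margin of the 13 (-0.19 ± 0.06, adjusted p = 0.0243), and the adjusted p rose to between 0.0542 and 0.0656 without control replicate 2 or 3 or without mimic replicate 1, 2, 3 or 6. Col6a3 ranged from 10.1 to 13.9 CPM (median 12.3) and from 7.44 to 14.9 CPM (median 9.41), with mimic replicate 4 highest, and was not called (-0.21 ± 0.15, adjusted p = 0.373). Col6a5, at a mean of 74.2 counts, was lower (-0.36 ± 0.10, adjusted p = 0.0186), with 5 mimic libraries below every control, but its adjusted p was 0.0518 without control replicate 3. Col6a4 and Col6a6, with means of 18.8 and 32.0 counts, were not called.

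Fibril-associated collagens with interrupted triple helices sit on the surface of fibrils. Of the 9 genes 2 were lower and 2 higher, and 3 of these 4 did not overlap between groups. Col12a1 (chr9:79598991-79718831, minus strand) ranged from 102 to 115 CPM (median 105) in the control and from 77.1 to 87.0 CPM (median 83.0) in the mimic libraries. All mimic libraries lay below all controls, and the groups were tight. Its log2 fold change was -0.38 ± 0.04, with the lowest adjusted p of the lower collagens (3.3e-06). Col16a1 (chr4:130047840-130099283, plus strand) ranged from 43.6 to 59.9 CPM (median 49.9) and from 33.4 to 40.3 CPM (median 38.2). These groups did not overlap either, and the log2 fold change was -0.43 ± 0.07 (adjusted p = 0.000159).

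Type IX collagen is built from Col9a1, Col9a2 and Col9a3 chains and, with type II, is best known from cartilage and the vitreous body. Col9a3 (chr2:180597790-180622189, plus strand) ranged from 21.1 to 32.5 CPM (median 23.7) in the control and from 41.4 to 48.1 CPM (median 43.2) in the mimic libraries. Every mimic library lay above every control, the nearest being control replicate 1. The log2 fold change was 0.86 ± 0.08 (adjusted p = 1.23e-06), or 1.82 times the control level. The exons of Col9a3 overlap those of Tcfl5 on the opposite strand over 6.07% of their length, and whether counting used the strand is not stated. Tcfl5 had a mean of 89.2 counts against 1026 for Col9a3 and moved the other way (-0.38, adjusted p = 0.00446). Col9a1 was higher as well, from a median of 2.23 CPM (1.72 to 3.23) in the control to 3.15 CPM (3.04 to 3.69) in the mimic libraries (log2 fold change 0.50 ± 0.12, adjusted p = 0.00581), with only control replicate 1 reaching the mimic range. Col9a2 had medians of 1.41 and 1.69 CPM and was not called (0.20 ± 0.14, adjusted p = 0.338).

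The other fibril-associated chains were not called. Col19a1, which is made by neurons and takes part in synapse formation in the hippocampus, ranged from 7.87 to 9.43 CPM (median 8.85) in the control and from 9.14 to 10.8 CPM (median 9.76) in the mimic libraries. In 5 of the mimic libraries it lay above every control, and it missed the threshold (0.16 ± 0.06, adjusted p = 0.0573) but passed it without control replicate 2 or mimic replicate 5. Col20a1 ranged from 5.45 to 7.90 CPM (median 6.90) and from 5.14 to 6.57 CPM (median 6.09), with a log2 fold change of -0.18 ± 0.09 (adjusted p = 0.167). Col22a1 ranged from 7.57 to 9.69 CPM (median 8.37) and from 7.37 to 9.98 CPM (median 8.29), with an estimate near 0 (0.02, 95% interval -0.16 to 0.20). Both carry a seed site of the mimic. Col14a1, at a mean of 37.6 counts, had a log2 fold change of -0.30 ± 0.18 (adjusted p = 0.270).

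The transmembrane collagens are single-pass membrane proteins whose collagenous part can be shed from the cell. Of the 4 genes 2 were higher, and 0 were lower by edgeR, DESeq2 or limma-trend, with 2 at an unadjusted p under 0.05. Col23a1 (chr11:51289920-51583918, plus strand) ranged from 26.7 to 31.5 CPM (median 31.1) in the control and from 38.5 to 46.4 CPM (median 42.7) in the mimic libraries. The groups did not overlap, and the log2 fold change was 0.49 ± 0.05 (adjusted p = 4.44e-06) for a gene with 2 seed sites of the mimic. Col25a1, made by neurons and known as the precursor of a component of amyloid plaques, ranged from 26.6 to 33.96 CPM (median 32.2) and from 35.9 to 40.9 CPM (median 38.0). Every mimic library lay above every control (0.29 ± 0.06, adjusted p = 0.00123), and this gene also holds a seed site. Col13a1, with medians of 2.16 and 2.00 CPM, and Col17a1, with 0.587 and 0.464 CPM, were not called.

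Col28a1, a von Willebrand domain collagen known from peripheral nerve, ranged from 9.51 to 11.9 CPM (median 10.98) in the control and from 6.51 to 8.26 CPM (median 7.52) in the mimic libraries. Its groups did not overlap. Col28a1 fell by 0.53 on the log2 scale (SE 0.07, adjusted p = 2.23e-05). Col26a1 ranged from 14.5 to 21.8 CPM (median 18.5) and from 14.4 to 19.4 CPM (median 16.4), and was not called (-0.13 ± 0.09, adjusted p = 0.329).

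**Figure D5:**
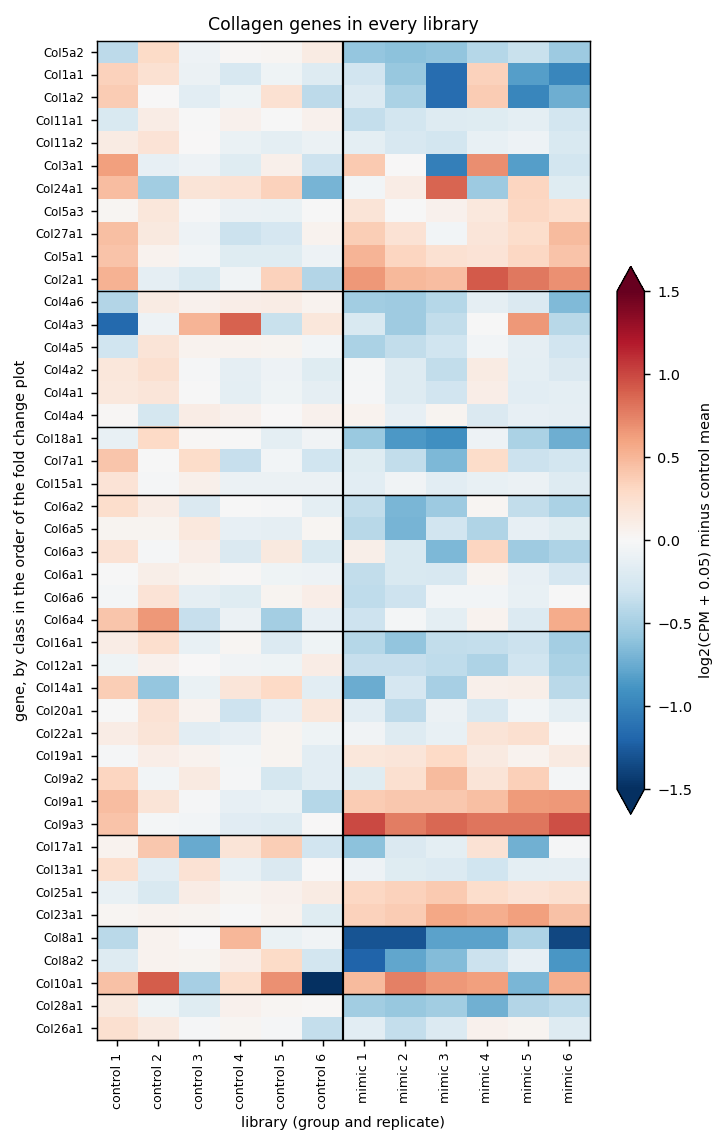
Level of each of the 44 collagen genes (rows, by class) in each of the 12 libraries (columns), as log2(CPM + 0.05) minus the mean of the 6 control libraries, with blue for lower and red for higher. Col1a1, Col1a2 and Col3a1 vary within the mimic group, high in mimic replicate 4 and low in mimic replicates 3 and 5, whereas every mimic column is blue for Col12a1 and Col28a1 and red for Col9a3 and Col23a1.

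Of the 8 collagen genes with a seed site of the mimic, 2 were lower (Col5a2 and Col6a2), 3 were higher (Col2a1, Col23a1 and Col25a1) and 3 were not called (Col4a1, Col20a1 and Col22a1). Over all tested genes with a site, 636 of 3306 were lower and 385 were higher. The median log2 fold change of these 8 genes was -0.05, and that of the 36 collagen genes without a site was -0.19. Over all tested genes with a 3′ UTR the corresponding medians were -0.04 with and 0.001 without a site. Of the 13 lower collagens 11, Col8a1, Col12a1, Col16a1, Col18a1 and Col28a1 among them, carried no site in the longest 3′ UTR. The seed of the negative control had a match in 0 of the 44 collagen genes, against 4.42% of all genes with a 3′ UTR.

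Genes that make, cross-link, bind or degrade collagen were examined beside the chains. Over all tested genes 10.7% were lower and 11.5% higher, and among those with a mean of at least 100 counts 13.3% and 15.1%. These shares are the background for each list here and for the marker lists below. Over the 6 lists 39 genes were called, and 45 without control replicate 1. In the list of 22 genes for chain modification and folding, 9 were higher and 2 were lower. Plod1, a lysyl hydroxylase, rose from a median of 42.0 to 65.2 CPM (log2 fold change 0.59 ± 0.07, adjusted p = 4.24e-06). Serpinh1, the collagen chaperone HSP47, rose from 126.6 to 185 CPM (0.51 ± 0.05, adjusted p = 4.98e-07). Fkbp10, a folding helper for type I procollagen, rose from 19.2 to 27.1 CPM (0.44 ± 0.07, adjusted p = 0.000271). For Plod1 and Serpinh1 no mimic library overlapped a control library.

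In the list of 14 tested genes for procollagen cleavage and cross-linking, 5 were lower and 2 higher. Lox, lysyl oxidase, which cross-links collagen and elastin, ranged from 5.757 to 16.95 CPM (median 14.2) in the control and from 2.88 to 5.756 CPM (median 4.71) in the mimic libraries, with a log2 fold change of -1.57 ± 0.23 (adjusted p = 0.000259). The lowest control library lay just above the highest mimic library. Adamts2, which removes the N-propeptide of fibrillar procollagens, had medians of 13.5 and 9.43 CPM without overlap (-0.57 ± 0.08, adjusted p = 4.51e-05). Loxl2, another lysyl oxidase, had medians of 16.2 and 10.01 CPM (-0.54 ± 0.11, adjusted p = 0.00134).

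Of 11 tested receptor and uptake genes, 4 were higher and 1 was lower. Itga2, the alpha-2 integrin chain that binds type I collagen, rose from a median of 2.19 to 5.63 CPM (1.401 ± 0.11, adjusted p = 5.24e-08). Adgrg1, a receptor for type III collagen in the developing brain, rose from 188 to 277 CPM (0.52 ± 0.07, adjusted p = 5.44e-05). Itgb1, the beta-1 chain shared by all collagen-binding integrins, rose from 209 to 275 CPM (0.43 ± 0.05, adjusted p = 2.87e-06). For these 3 genes every mimic library lay above every control. Of 11 tested genes for breakdown and its inhibitors, 3 were higher and 2 lower. Mmp14, a membrane-bound collagenase, rose from a median of 42.6 to 107 CPM (1.23 ± 0.11, adjusted p = 7.51e-07). Mmp2, a gelatinase that MMP14 activates, rose from 15.8 to 29.9 CPM (0.94 ± 0.10, adjusted p = 3.78e-06). Timp4, an inhibitor of such enzymes, rose from 28.05 to 38.1 CPM (0.44 ± 0.06, adjusted p = 4.26e-05). These 3 did not overlap between the groups either. The 2 lower genes, named here after their values were seen, are inhibitors of the same family, Timp1 (-0.93 ± 0.17, adjusted p = 0.000502) and Timp3 (-0.28 ± 0.07, adjusted p = 0.00875).

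Among 15 tested matrix proteins that associate with fibrils, 6 were lower and 1 was higher. Ogn, the small proteoglycan osteoglycin, had medians of 14.0 and 5.40 CPM (-1.39 ± 0.31, adjusted p = 0.00629), with the lowest control, control replicate 1, inside the mimic range. Postn, periostin, had medians of 18.2 and 10.7 CPM (-0.65 ± 0.12, adjusted p = 0.000959). Fbln1, fibulin 1, rose from 17.3 to 38.9 CPM (1.11 ± 0.08, adjusted p = 1.96e-08). Of 12 basement membrane partners of type IV collagen, 2 were higher and 2 lower. Lamc1, the common laminin gamma-1 chain, rose from a median of 124 to 161 CPM (0.32 ± 0.04, adjusted p = 4.56e-05). The proteoglycan agrin, Agrn, had medians of 410 and 349 CPM (-0.27 ± 0.05, adjusted p = 0.00127), and the laminin chain Lamb1 had 73.4 and 66.1 CPM (-0.15 ± 0.04, adjusted p = 0.0193).

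The 12 listed pericyte and smooth muscle markers, 9 of which were tested, summed to 92.0 to 168.5 CPM in the control and 65.6 to 76.9 CPM in the mimic libraries, with 3 lower (Acta2, Tagln and Cnn1) and 1 higher (Rgs5). The lower sum rested on Acta2, with medians of 29.3 and 3.37 CPM, and Tagln, with 50.8 and 13.9 CPM. Pdgfrb, Vtn, Notch3, Anpep and Myh11 were not called. The 14 fibroblast markers summed to 97.7 to 110 CPM and 105 to 130 CPM, with 1 lower (Osr1) and 4 higher (Slc6a13, Prrx1, Mfap4 and Fibin). The other fibroblast markers, Dcn and Lum among them, were not called. Of the 12 endothelial markers, Tie1, Cldn5 and Erg had too few counts to be tested, and the summed 204 to 237 CPM in the control and 309 to 324 CPM in the mimic libraries rested mostly on Slco1c1, a transporter that astrocytes also express and the only endothelial marker that was higher. The receptors Kdr (log2 fold change -0.64, adjusted p = 0.00802) and Flt1 (-0.77, adjusted p = 0.0433) were lower, and the median over the 9 tested endothelial markers was -0.26. Of 11 astrocyte markers 8 were higher and 1, Gfap, was lower (log2 fold change -0.90), and of 11 oligodendrocyte lineage markers 6 were higher and 1, Mog, was lower (-0.36). Of 12 neuron markers 2 were higher and 2 lower. Of 12 microglia markers, which summed to 26.9 to 32.0 CPM in the control and 25.2 to 36.3 CPM in the mimic libraries, the complement genes C1qa, C1qb and C1qc were lower. The 7 choroid plexus markers summed to 223 to 428 CPM and 200 to 368 CPM, with Folr1 lower (-0.59) and Kl higher (0.95). No listed marker was at 0 in every library. The part of these cell types in the collagen values was not tested.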

How the data were processed

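The 6 control and 6 mimic samples had been sequenced with 50 bp single-end reads after poly(A) selection and TruSeq library preparation. The authors aligned the reads to mm10 with STAR 2.5.2b and counted them per gene with featureCounts (Subread 1.5.1), after quality control with FastQC 0.11.5. These deposited raw counts, which were used here, sum to 20018234 to 37149112 a library, and this depth sets the precision of low genes. The annotation and the strand setting are not given in the sources used here. The authors' normalized series table was not used. Groups and replicate numbers came from the sample titles.

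Gene symbols, exon lengths and 3′ UTRs came from GENCODE M21 (GRCm38), which named 48349 of 48709 genes. Exon length counts every base that lies in an exon of any annotated transcript of the gene. CPM are counts per 1000000 of the library size scaled by TMM. The study's filter, 5 or more counts in 6 or more libraries, was kept. Group means were compared in edgeR 4.0.16 under R 4.3.3 by the quasi-likelihood method with robust dispersions, no covariate and Benjamini-Hochberg adjustment over the 18847 genes, with an adjusted p under 0.05 called. The study used DESeq2. The SE is the log2 fold change divided by the square root of F, and 95% intervals use the t quantile of the fitted degrees of freedom. Alternatives were RLE and upper-quartile scaling, no filter or one of 10 counts, DESeq2 1.42.0, limma-trend 3.58.1 (prior count 2), a replicate block and leaving out each library. In data simulated from the means and dispersions of this comparison (18847 genes), 87 of 100 genes changed by 0.75 and 91 of 100 changed by 1.5 on the log2 scale were called. Only Col8a1 and Col9a3 changed by more than 0.75, so these rates do not apply to the other collagen genes.

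All fibrillar and type IV members and every member with a mean of at least 100 counts were described one by one, and in each pathway list the called genes above that mean with the largest changes, at most 3, were named. The other called members were added, and Col4a3, Col24a1 and further low members were given by class. The collagen members, classes, pathway lists and markers were chosen with earlier results of these data known. Reads shared between overlapping genes or similar chains cannot be assigned with certainty.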

Additional observations from a re-analysis of the deposited data

Results flagged for a closer look

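In each group of 6 libraries, the gap between the highest or lowest CPM of a collagen gene, or of a class sum, and its nearest neighbour was divided by the range of the group, and 10 of 96 such groups passed Dixon's critical value at the 95% level, where chance gives about 1 in 20. Control replicate 1 accounted for 4 of them. It was highest for Col3a1 (53.3 CPM, the next at 36.7, ratio 0.658), Col5a1 (224 and 172 CPM, 0.672) and Col9a3 (32.5 and 24.2 CPM, 0.729), and lowest for Col4a6 (17.6 and 24.9 CPM, 0.865).

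Control replicate 2 was lowest for Col4a4 (4.97 and 6.00 CPM, ratio 0.698) and highest for Col18a1 (49.9 and 41.3 CPM, 0.650). Control replicate 6 was lowest for Col23a1 (26.7 and 30.2 CPM, 0.737). In the mimic group, replicate 5 was highest for Col4a3 (1.01 and 0.626 CPM, 0.652) and lowest for Col10a1 (0.135 and 0.364 CPM, 0.722), and replicate 6 was highest for Col6a4 (0.949 and 0.657 CPM, 0.646). The calls of Col5a1, Col9a3, Col4a6, Col18a1 and Col23a1 held without the library named here.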

How the results depend on the processing

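The calls and directions of 10 of the 13 lower, 5 of the 6 higher and 13 of the 25 uncalled collagen genes were the same under every alternative run. Leaving out 1 library gave 17 to 21 called collagen genes (19 with all libraries), 11 to 15 of them lower and 6 to 8 higher, and 2 to 4 fibrillar genes in each direction. Calls were gained by Col11a2 (upper-quartile scaling or without control replicate 5), Col15a1 (upper-quartile scaling) and Col20a1 (without control replicate 4), beside those given with their genes above. With no filter on low counts 1 type IV gene was called instead of 2, since Col4a5 missed the threshold. Counting only 8-base sites left 2 collagen genes with a site instead of 8. The estimate of Col6a4, near 0 at 18.8 counts, turned negative with upper-quartile scaling (-0.0179), DESeq2 (-0.00454) and limma-trend (-0.0149), and with the replicate block (-0.00855). Over the runs without 1 library it ranged from -0.14 to 0.16, that of Col3a1 from -0.28 to 0.0726, that of Col22a1 from -0.0234 to 0.0658 and that of Col24a1 from -0.13 to 0.25, and none of these genes was called. The labels do not say whether the replicate numbers pair the samples. Same-numbered libraries correlated from -0.22 to 0.32 in their deviations, which shows no clear pairing but cannot exclude one. The block left 19 collagen genes called, 13 lower and 6 higher. Over all genes the block called 19.4%, DESeq2 26.4% and limma-trend 21.9%. Col24a1 did not reach the filter of 10 counts and DESeq2 gave it no adjusted p, so it has no value under either. Depth limits Col24a1, Col10a1, Col17a1, Col6a4 and Col4a3, whose intervals include changes of either direction.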
